A study of Mus musculus with 9 samples.

Results

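The cytosolic ribosomal protein genes encode the proteins that are assembled with ribosomal RNA into the large and small subunits of the cytosolic ribosome. They were taken from the deposited expression table by name: gene names that begin with Rpl or Rps and a number, with Rpsa, Rplp0, Rplp1 and Rplp2 added. The kinases named Rps6k, Rps19bp1 and names marked as pseudogenes were left out, which dropped 18 of 104 matching names. The remaining 86 genes, of 22399 in the table, comprised 52 large subunit and 34 small subunit genes. The subunit was assigned by name only, Rpl for large and Rps for small. Of these, 82 had a mean of at least 1 FPKM and were tested, 49 of the large and 33 of the small subunit. FPKM counts sequenced fragments, scaled by gene length in kilobases and by library size.

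The libraries were bulk RNA-seq of basal keratinocytes from mouse plantar epidermis, the deepest layer, whose divisions replace the cells above. The sort kept cells with CD49f, an integrin chain of the basal layer, and left out cells with CD34, which marks stem cells of the hair follicle. All animals were wild-type C57BL/6 mice, in 3 groups of 3 libraries. The aged group was 24 months old, and its labels give no diet. The HFD group was fed a high-fat diet and was 5 months old. The control group was fed a normal diet and was 5 months old. Whether the libraries of a group came from separate animals is not stated, so p-values reflect only how much these samples vary, and that variation could be technical. The design asks how diet and age each alter basal cells relative to young animals on a normal diet.

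In mammals, most ribosomal protein mRNAs begin at the cap with a run of pyrimidines, the TOP (terminal oligopyrimidine) motif, through which growth signals acting on mTOR and LARP1 control their translation together. Ribosomal proteins are made in the cytosol, imported into the nucleolus and joined there to ribosomal RNA transcribed by RNA polymerase I. Most are encoded by a single active gene and many processed pseudogenes, and a few have an expressed paralog. In epidermis, the basal layer holds the dividing cells.

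Several of these genes have a run of pyrimidines near their start sites, whereas a TOP motif itself begins at the cap. The 30-base windows below, from 15 bases before to 15 bases after the RefSeq start, come from the promoter table of RefSeq on GRCm38.p6 and read 5′ to 3′ on the gene's strand. Capitals mark the longest run of consecutive pyrimidines (C or T) in the window, at any place in it, and the first such run where lengths tie. In Rps15a, Rps27l, Rps27rt, Rpl36al and Rpl7l1 that run lies wholly before the RefSeq start. The marked run is therefore not part of an mRNA that begins there. Rps15a and Rps27rt also have another pyrimidine run, in small letters, that covers the RefSeq start. Where RefSeq lists several starts, the start with the longest run is shown, which favours long runs. Rpl7a, Rps15a and Rpl38 are shown as long runs, and the others because the results below turn on them.
Rpl7a: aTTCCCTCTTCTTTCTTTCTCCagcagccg
Rps15a: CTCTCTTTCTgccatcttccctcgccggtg
Rpl38: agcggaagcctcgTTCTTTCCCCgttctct
Rpl22l1: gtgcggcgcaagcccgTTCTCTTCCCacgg
Rpl39: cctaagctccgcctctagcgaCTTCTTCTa
Rpl12: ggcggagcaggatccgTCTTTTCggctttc
Rps27: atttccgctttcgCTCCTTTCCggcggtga
Rps27rt: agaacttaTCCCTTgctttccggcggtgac
Rps27l: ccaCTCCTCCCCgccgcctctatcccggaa
Rpl36a: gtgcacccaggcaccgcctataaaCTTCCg
Rpl36al: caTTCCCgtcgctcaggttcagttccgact
Rpl7l1: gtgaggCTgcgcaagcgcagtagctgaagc
The windows lie at chr2:26910792-26910821 on the plus strand for Rpl7a, chr7:118116133-118116162 on the minus strand for Rps15a and chr11:114668565-114668594 on the plus strand for Rpl38. The window of Rpl22l1 is chr3:28805493-28805522 on the plus strand, that of Rpl39 is chrX:37085208-37085237 on the minus strand, and that of Rpl12 is chr2:32961697-32961726 on the plus strand. Rps27 lies at chr3:90213634-90213663 on the minus strand, Rps27rt at chr9:114982725-114982754 on the minus strand and Rps27l at chr9:66946071-66946100 on the plus strand. Rpl36a lies at chrX:134585639-134585668 on the plus strand, Rpl36al at chr12:69184053-69184082 on the minus strand and Rpl7l1 at chr17:46782642-46782671 on the minus strand. The longest run was 21 bases in Rpl7a, 10 bases in Rpl22l1 and 2 bases in Rpl7l1.

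Of the 66 members that matched the promoter table, 28 (42.4%) held a run of 8 or more consecutive pyrimidines in this window, on the gene's strand. The share was 13.9% of the windows of all 27025 genes in the table and 14.4% of those of the 8365 tested genes. Runs of purines of the same length, which are pyrimidine runs on the opposite strand, were found in 1 of the 66 members (1.52%) and in 12.2% of all windows. A match is a description of these letters and does not show where transcription started in these cells, or that the run lies in the mRNA. Members with such a run and members without it had close medians. The median log2 fold change was 0.09 in both sets (27 and 35 tested members) in HFD against control libraries. In aged against control libraries the medians were 0.16 with a run and 0.15 without.

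Ribosomal protein mRNAs were among the most abundant in these cells. Summed over the members, they made up 14.8 ± 0.964% of all FPKM in aged, 13.8 ± 0.516% in HFD and 13.7 ± 0.354% in control libraries (SD, n = 3 each). Members filled 44 of the 100 highest places by mean FPKM, and 77 of them averaged at least 100 FPKM. The highest was Rplp1, an acidic protein of the stalk that recruits elongation factors, with a mean of 3999 FPKM over the 9 libraries. Rps15 averaged 2046 FPKM, Rplp0, the base of the same stalk, 1682 FPKM, and Rpl4, which lines the exit tunnel, 1591 FPKM. The median of a tested large subunit gene was 348 FPKM and that of a small subunit gene 438 FPKM. The lowest tested members were Rps27rt, an intronless copy of Rps27, at 8.91 FPKM and Rpl7l1 at 33.3 FPKM. The 4 members that were not tested were near or at 0. Rpl10l, expressed in testis, was listed at 0 in all 9 libraries, and Rpl3l, the paralog of heart and skeletal muscle, at 0 in all but HFD replicate 3. Rpl39l, another testis paralog, lay between 0 and 1.74 FPKM and Rps23rg1, a Rps23 retrogene, at 0.0666 FPKM or less.

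The order of these levels depends on gene length. The deposited values fit the length of all merged exons (374 to 6270 bases over the members), which at the median is 2.27 times the length of the principal transcript (345 to 5130 bases). With the principal transcript as divisor, Rplp1 stayed first, Rps27 moved up to place 2 from place 12 and Rps12 to place 3 from place 18. Spearman's rho between both orders was 0.809 over 82 members. A ratio of FPKM between libraries does not depend on the divisor, but a difference of log2(FPKM + 1) does, mainly in genes with low FPKM.

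The libraries held 23.5 to 35.8 M reads, estimated from the FPKM of 1 read among low genes, and a tested member had at least 76 reads (Rps27rt) and a median of 22340 reads per library. Intervals from such counts would cover counting error only, and the spread between libraries is used instead. Basal identity was as labelled: Krt5, Krt14, Trp63 and Itga6, which encodes CD49f, were high in every library, and Cd34 was at 0.0671 FPKM or less. The 6 basal markers summed to 23031 to 30905 FPKM and 6 markers of differentiating keratinocytes to 5687 to 10030 FPKM. Fibroblast markers summed to at most 6.64 FPKM with Lum at 0 everywhere, immune markers to at most 11.2 FPKM and sweat gland markers to at most 2.77 FPKM. Endothelial, melanocyte, Schwann cell and erythroid markers summed to less than 1 FPKM each. In bulk libraries, fewer cells of a type and less RNA per cell cannot be told apart.

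Aged replicate 3 stood apart from the other 2 aged libraries in the ribosomal protein genes. Each member's log2(FPKM + 1) was set against its mean over the 9 libraries, and the median deviation over the 82 tested members was 0.14 in aged replicate 1, 0.16 in aged replicate 2 and −0.12 in aged replicate 3. It was 0.09, 0.03 and −0.08 in HFD replicates 1 to 3, against −0.04, −0.15 and −0.05 in control replicates 1 to 3. Aged replicates 1 and 2 were therefore above every other library, and aged replicate 3 was inside the range of the control libraries. Over all tested genes the same median lay between −0.004 and 0.006 in every library. In aged replicates 1 and 2, 72 and 71 of the 82 members were higher than in all 3 control libraries and 3 members in each were lower than in all of them. Of all tested genes, 33.1% and 32.1% were higher and 34.5% and 32.96% lower in these libraries. In aged replicate 3, 20 were higher than in all control libraries and 32 lower, where 28.5% and 30.1% of all tested genes were. The labels give no reason to leave this library out, so results that rest on it are given with and without it. It was singled out by the low values of the members themselves. Leaving it out therefore raises their changes in aged libraries by construction, and adjusted p-values without it are descriptions only.

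**Figure D1:**
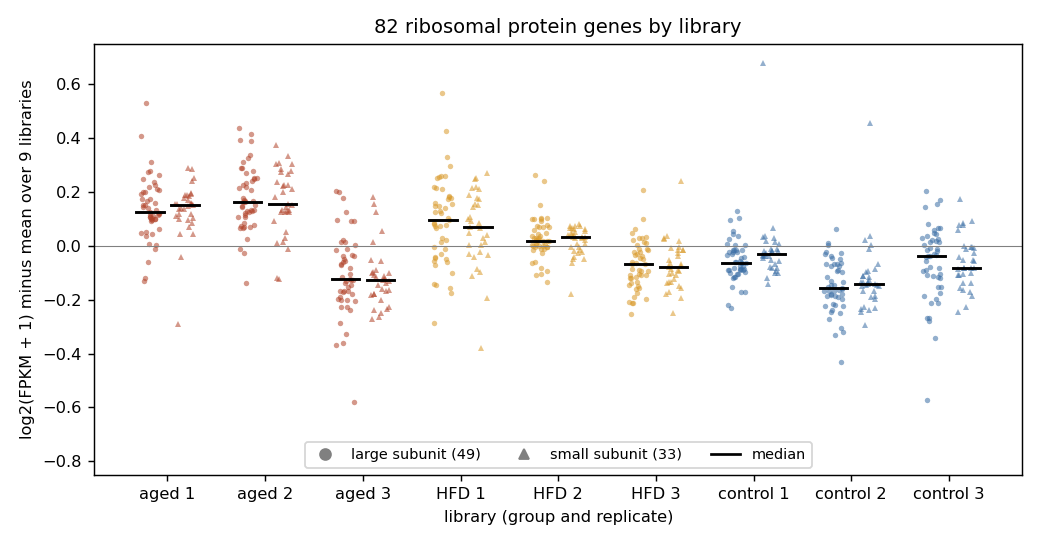
Deviation of each of 82 ribosomal protein genes from its own mean over the 9 libraries, as log2(FPKM + 1), with circles for 49 large and triangles for 33 small subunit genes and a black line at each median. Aged replicates 1 and 2 have medians of 0.14 and 0.16 over both subunits, aged replicate 3 has −0.12, and the large and small subunit medians move together in every library.

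Some other measures also set aged replicate 3 apart from the other 2 aged libraries. The correlation over all tested genes between a gene's deviation in a library and the GC content of its transcript (Spearman's rho) was −0.18 and −0.21 in aged replicates 1 and 2 but 0.27 in aged replicate 3. It was −0.42, −0.26 and −0.28 in the HFD libraries, against 0.12, 0.37 and 0.54 in the control libraries. The summed markers of differentiating keratinocytes were 10030, 8572 and 7251 FPKM in aged replicates 1 to 3, while the basal markers were 23977, 23031 and 23601 FPKM. The differentiation markers summed to 7566, 8342 and 5687 FPKM in HFD replicates 1 to 3 and to 6705, 7957 and 5916 FPKM in control replicates 1 to 3. Control replicate 2 had the lowest median deviation of the members, so these sums did not follow that deviation in every library. The part of these measures in the difference was not tested.

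Among genes for the large subunit, a high-fat diet was accompanied by a higher level of Rpl7l1. Rpl7l1 is a relative of Rpl7 and of the yeast assembly factor Rlp7, and it is known from precursors of the large subunit rather than from finished ribosomes. Its FPKM was 41.7, 39.2 and 38.3 in HFD libraries, against 29.2, 28.1 and 29.6 in control libraries. Every HFD library was above every control library, and the spread within each group was small. The log2 fold change was 0.44 ± 0.0866 (SE), with an adjusted p of 0.00756 by limma over all 10367 tested genes. It was called in all 23 other settings tried, with adjusted p between 0.00358 and 0.0493. Aged libraries had 30.2, 35.8 and 28.0 FPKM, which overlapped the control libraries.

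No other member was called in HFD against control libraries: 1 of 82 members was higher, against a background of 8.26% of all tested genes, and 0 of 82 were lower, against 8.76%. Calls are Benjamini-Hochberg adjusted p under 0.05 in limma. At an unadjusted p under 0.05, 6 members (7.32%) differed, against 34.0% of all tested genes. The fold change was above 0 in 60 of 82 members, and its median was 0.09, beside 0.01 over all tested genes. In 18 members every HFD library was above every control library and in 7 every HFD library was below, against a background of 20.8% and 19.6% of all genes. With each library scaled to the same total FPKM, the members' median was 0.04, and the calls over all genes were 596 higher and 1159 lower, beside 856 and 908 as deposited. The direction of the small median shift held under each scaling tried (median 0.02 after quantile normalization).

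The largest difference by size in HFD libraries was in Rpl22l1, the paralog of Rpl22. In mice, Rpl22 is known to hold down the expression of Rpl22l1, and both proteins bind RNA outside the ribosome. Rpl22l1 had 122, 98.6 and 85.6 FPKM in HFD libraries, against 69.9, 60.6 and 54.8 FPKM in control libraries. All HFD libraries were above all control libraries, and the 3 HFD libraries were spread widely. Its log2 fold change was 0.71 ± 0.238, and the adjusted p was 0.0621 in limma. Rpl22 itself had 238, 201 and 193 FPKM in HFD libraries, against 178, 167 and 164 FPKM in control libraries, again with no overlap. Its log2 fold change was 0.31 ± 0.102 (adjusted p 0.0596 in limma). Rpl23a, which sits at the mouth of the exit tunnel, followed with 0.32 ± 0.108 (adjusted p 0.0648 in limma). Without aged replicate 3, whose spread enters the common error of the fit, 6 members (7.32%) were called higher in HFD libraries, against 10.02% of all tested genes: Rpl22, Rpl22l1, Rpl23a, Rpl5, Rpl7 and Rpl7l1. Without aged replicate 1, Rpl22l1 was called beside Rpl7l1.

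**Figure D2:**
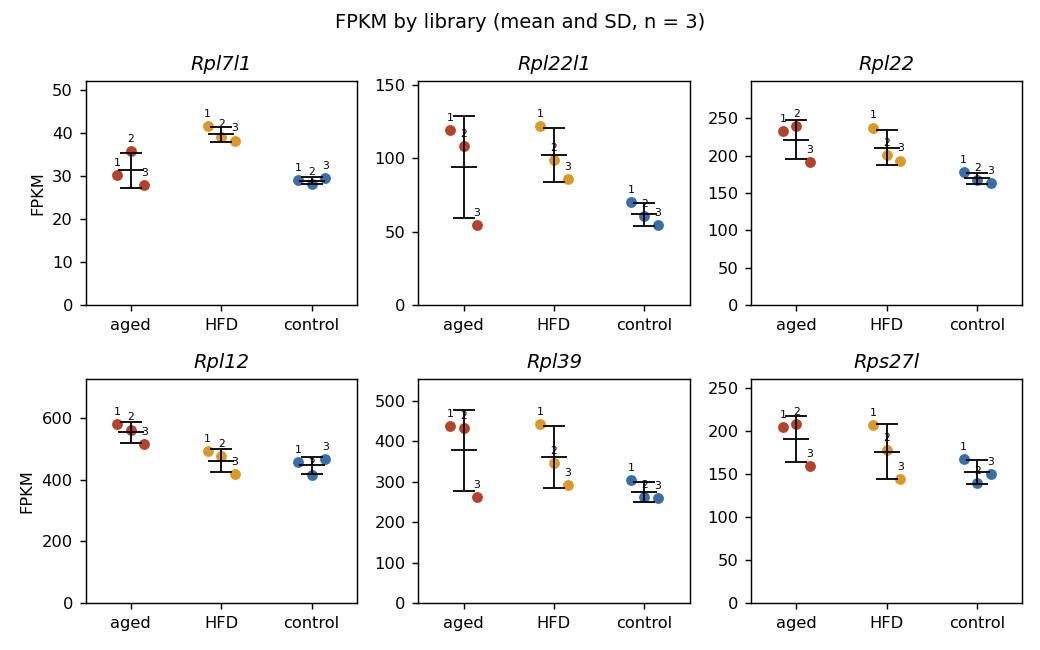
FPKM of 6 ribosomal protein genes in each library (points, labelled by replicate), with mean and SD of 3 libraries, for aged, HFD and control groups. Rpl7l1 is highest in the HFD libraries (38.3 to 41.7 FPKM, against 28.1 to 29.6 in control libraries), while aged replicate 3 is the lowest aged library in all 6 genes.

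The lowest values in HFD libraries were in members that did not pass the test. Rps27rt had 6.40, 7.50 and 10.4 FPKM in HFD libraries, against 14.4, 12.2 and 7.11 FPKM in control libraries, and the groups overlapped because of control replicate 3. Its log2 fold change was −0.40 ± 0.209 (adjusted p 0.196 in limma), and without control replicate 3 it was −0.67 and called (adjusted p 0.0244 in limma). That library was singled out by its low value of Rps27rt itself. Leaving it out lowers the fold change by construction, and the adjusted p without it is a description only. Rpl36 was lower without overlap, at 983, 1049 and 932 FPKM in HFD libraries and 1130, 1112 and 1158 FPKM in control libraries. Its log2 fold change was −0.20 ± 0.0921 (adjusted p 0.152 in limma), and it was called lower after scaling to total FPKM, quantile normalization or a length correction.

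In aged libraries, 2 members of the large subunit were called higher than in control libraries: Rpl22 and Rpl12. That is 2 of 82 members against a background of 4.01% of all genes, and 0 of 82 were lower, against 3.74%. At an unadjusted p under 0.05, 20 members (24.4%) differed, near the 25.8% of all tested genes. The fold change was above 0 in 71 of 82 members with a median of 0.15, beside −0.01 over all tested genes. In 16 members every aged library was above every control library, and in 0 every aged library was below, against a background of 13.7% and 14.1%.

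Rpl22 had 232, 239.8 and 191 FPKM in aged libraries, against 178, 167 and 164 FPKM in control libraries. Even the lowest aged library was above the highest control library. The log2 fold change was 0.37 ± 0.102 (adjusted p 0.0467 in limma). Rpl12, a protein at the base of the stalk where elongation factors bind, had 583, 564 and 517 FPKM in aged libraries, against 457, 417 and 466 FPKM in control libraries. The groups did not overlap, and the HFD libraries (493, 476 and 419 FPKM) lay with the control libraries. Its log2 fold change was 0.31 ± 0.0854 (adjusted p 0.0486 in limma). Both adjusted p-values were close to the threshold: Rpl22 was not called in 10 and Rpl12 in 9 of the 23 other settings, with adjusted p up to 0.186 and 0.158. Both lost their calls without aged replicate 1 or 2 or without any one of the control libraries, and Rpl22 was also lost without HFD replicate 2 or 3 and Rpl12 without HFD replicate 1 or 2. An exon of Lrsam1 overlaps Rpl12 on the opposite strand, and the sources used here do not say if counting took strand into account.

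Without aged replicate 3, 29 members were called higher and 0 lower in aged against control libraries. Of all tested genes, 5.71% were called higher and 6.39% lower. The members were low in the library left out, so more and larger increases follow from leaving it out, and these calls are no separate test. The called genes were 18 of 49 large and 11 of 33 small subunit genes, and the median over the members was 0.24. The highest was Rpl22l1, with 119 and 108 FPKM in aged replicates 1 and 2 and 54.5 FPKM in aged replicate 3, against 69.9, 60.6 and 54.8 FPKM in control libraries. Its log2 fold change was 0.87 without aged replicate 3 (adjusted p 0.00596 in limma), and 0.53 ± 0.238 with all libraries (adjusted p 0.190 in limma).

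Rpl39, a very short protein of the exit tunnel, had 439, 433 and 263 FPKM in aged libraries, against 305, 263 and 260.4 FPKM in control libraries. Aged replicates 1 and 2 were above all control libraries and aged replicate 3 was among them. The log2 fold change was 0.66 without aged replicate 3 (adjusted p 0.0179 in limma) and 0.42 ± 0.191 with it (adjusted p 0.192 in limma). Rps24, a small subunit protein whose human gene is mutated in some patients with Diamond-Blackfan anaemia, had 265, 269 and 202 FPKM in aged libraries, against 197, 183 and 186 FPKM in control libraries. All aged libraries were higher, and the log2 fold change was 0.50 without aged replicate 3 (adjusted p 0.0189 in limma) and 0.37 ± 0.126 with it (adjusted p 0.0937 in limma).

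Rpl17 had 984, 1057 and 712 FPKM in aged libraries, against 749, 641 and 684 FPKM in control libraries, a log2 fold change of 0.56 without aged replicate 3 (adjusted p 0.0142 in limma) and 0.39 ± 0.146 with it. Rpl35a showed 97.9, 115 and 79.9 FPKM in aged libraries, against 80.4, 72.4 and 70.1 FPKM in control libraries, a log2 fold change of 0.51 without aged replicate 3 (adjusted p 0.0159 in limma) and 0.38 ± 0.123 with it. In both genes aged replicate 3 overlapped the control libraries. Rpl5 and Rpl11, which carry the nucleolar stress signal to the p53 regulator Mdm2, were called without aged replicate 3 at 0.29 and 0.33, beside 0.16 ± 0.102 and 0.20 ± 0.108 with it.

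**Figure D3:**
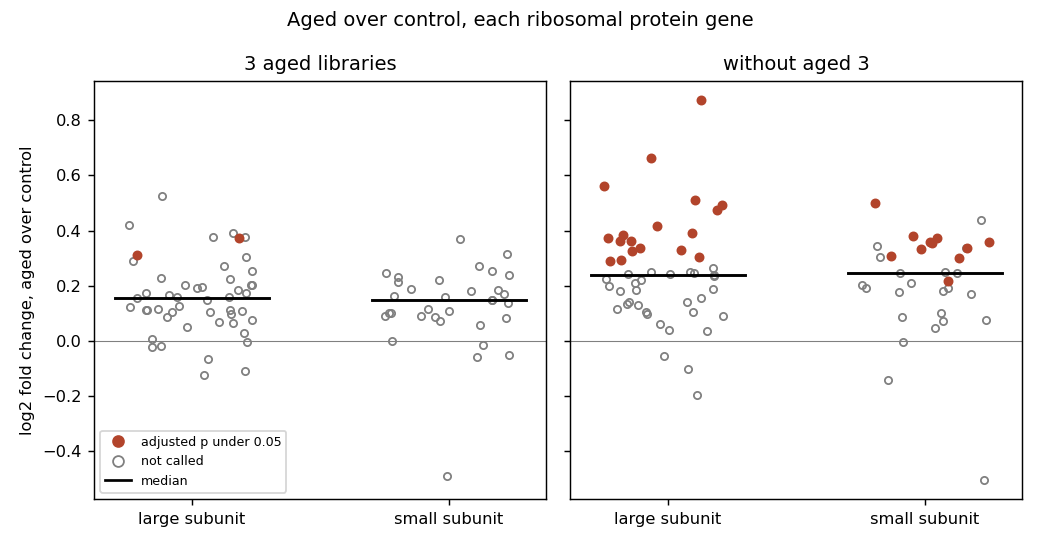
log2 fold change of aged over control libraries for each tested ribosomal protein gene, by subunit, with all 3 aged libraries (left) and without aged replicate 3 (right). Filled points are called by limma at an adjusted p under 0.05, 2 genes at left and 29 at right, and the black lines are medians, 0.15 for both subunits at left, 0.24 for the large and 0.25 for the small subunit at right. The members were low in aged replicate 3, so leaving it out raises the values at right.

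Some members were as high in aged replicate 3 as in the other aged libraries. Rplp2, an acidic stalk protein, had 380.4, 385 and 374 FPKM in aged libraries, against 319.9, 305 and 349 FPKM in control libraries. All aged libraries were above all control libraries, with a log2 fold change of 0.23 ± 0.0730 (adjusted p 0.0799 in limma). Rpl27a behaved likewise, with 180.2, 187 and 194 FPKM in aged libraries, against 162, 163 and 156 FPKM in control libraries (0.22 ± 0.0700, adjusted p 0.0737 in limma). The lowest change was again in Rps27rt, with 6.86, 7.82 and 7.59 FPKM in aged libraries and a log2 fold change of −0.49 ± 0.209 (adjusted p 0.167 in limma). Without control replicate 3 it was −0.76 and called (adjusted p 0.0343 in limma), again a description only, since that library was left out for its low Rps27rt.

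Between aged and HFD libraries, 1 of 82 members was called lower in aged libraries, Rpl7l1, against a background of 4.45% of all genes, and 0 of 82 were called higher, against 3.54%. Its FPKM of 30.2, 35.8 and 28.0 in aged libraries was below all HFD libraries (41.7, 39.2 and 38.3 FPKM). The log2 fold change was −0.34 ± 0.0866 (adjusted p 0.0372 in limma), and the call was lost in 10 of 23 other settings, with adjusted p up to 0.138. It was lost without aged replicate 1 or 3, without control replicate 1, and without any one of the HFD libraries. At an unadjusted p under 0.05, 9 members (11.0%) differed between aged and HFD libraries, against 24.4% of all tested genes. The members' median was 0.05, beside −0.00 over all genes. Without aged replicate 3 the median was 0.16, 5 members (6.10%) were called higher in aged libraries, against 2.61% of all tested genes, and 0 were called lower, against 3.77%. Those 5 were Rpl9, Rpl13a, Rpl34, Rpl36 and Rps21. In 11 members every aged library was above every HFD library, against a background of 13.9%, and in 1 member, Rpl7l1, every aged library was below, against 15.9%. Among the stalk genes, Rplp0, Rplp2 and Rpl12 did not overlap, while Rplp1 did, with 4285, 4193 and 3889 FPKM in aged libraries, against 3723, 3993 and 3962 FPKM in HFD libraries. Rplp0 had 1817, 1759 and 1793 FPKM in aged libraries, against 1522, 1561 and 1666 FPKM in HFD libraries (0.18 ± 0.0779, adjusted p 0.188 in limma). Rpl36 had 1211, 1379 and 1099 FPKM in aged libraries, against 983, 1049 and 932 FPKM in HFD libraries (0.31 ± 0.0921, adjusted p 0.0624 in limma). The HFD and aged comparisons with control share the control libraries, so their values are given side by side only. The F test among the 3 groups called 3 members, Rpl7l1, Rpl22 and Rpl12, against a background of 20.4%.

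The medians of the large and the small subunit were close in each comparison. The median log2 fold change was 0.11 for 49 large and 0.09 for 33 small subunit genes in HFD against control libraries, 0.15 for both in aged against control libraries, and 0.05 and 0.06 in aged against HFD libraries. Within a library, the large subunit median deviation minus the small subunit one lay between −0.03 and 0.04, with both signs in every group. The 4 calls over the 3 comparisons were of 3 large subunit genes, with Rpl7l1 counted in both HFD against control and aged against HFD libraries. Large subunit genes were 49 of the 82 tested members, so so few calls do not set the subunits apart. The ratio of summed large to summed small subunit FPKM was 1.47 ± 0.0327 in aged, 1.44 ± 0.0148 in HFD and 1.46 ± 0.0162 in control libraries (SD, n = 3 each). It was highest in aged replicate 3, at 1.51, against 1.43 to 1.47 in the other 8 libraries. Rpsa, a small subunit protein also known as the laminin receptor precursor, had 459, 460.4 and 485 FPKM in aged, 435, 429.6 and 424 in HFD, and 441, 402 and 469 in control libraries. Rps27a, which is made as a fusion with ubiquitin, had 427, 473 and 319 FPKM in aged, 446, 392 and 349 in HFD, and 371, 349 and 348 in control libraries. Neither was called in any of the 3 comparisons with all libraries. Without aged replicate 3, Rps27a was called higher in aged against control libraries, at 0.34 (adjusted p 0.0490 in limma), beside 0.17 ± 0.133 with it.

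For the paralogs, the log2 ratio of the FPKM of both genes was taken in each library. This removes any scaling of the whole library, but not a shift that depends on GC content. Of 9 pairs considered, 5 had both genes above 1 FPKM. The 15 differences between groups were tested with exact two-sided permutation tests, which at 3 against 3 libraries cannot go below p = 0.1, and the smallest adjusted p was 0.3. No difference in a ratio therefore passed a threshold of 0.05, nor could one have.

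Rpl22l1 over Rpl22 was −0.96, −1.03 and −1.18 in HFD libraries, against −1.35, −1.46 and −1.58 in control libraries, so the paralog was nearer to its partner in every HFD library. The difference was 0.41 (exact permutation p = 0.1, adjusted 0.3). GC content is 40.6% in Rpl22l1 and 47.3% in Rpl22, and after the GC correction their log2 fold changes were 0.55 and 0.24. In aged libraries the ratio was −0.97, −1.15 and −1.81, which spans the range of both other groups because of aged replicate 3. The mean was −1.31 ± 0.443 in aged and −1.46 ± 0.112 in control libraries, a difference of 0.16 with all aged libraries (exact permutation p = 0.6). Of the 50-base stretches of Rpl22l1, 57.3% also occur in transcripts of other genes, and the predicted gene Gm33051 overlaps it on the opposite strand.

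Rpl7l1 over Rpl7 was −3.80, −3.78 and −3.78 in HFD libraries, against −4.05, −3.97 and −4.01 in control libraries. The groups did not overlap, and the difference was 0.22 (exact permutation p = 0.1, adjusted 0.3). The ratio in aged libraries, −4.30, −4.00 and −3.96, was below every HFD library, with a difference of −0.30 (exact permutation p = 0.1, adjusted 0.3). Rpl36al over Rpl36a, a pair whose proteins are nearly identical, was −2.45, −2.52 and −2.58 in aged libraries, against −2.28, −2.23 and −2.22 in control libraries. Every aged library was lower, including aged replicate 3, with a difference of −0.27 (exact permutation p = 0.1, adjusted 0.3). Both genes share most of their 50-base stretches with other genes (63.3% for Rpl36al and 85.5% for Rpl36a), so the split of reads between them is uncertain.

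Rps27l, a paralog of Rps27 that p53 induces, had 204, 208 and 159 FPKM in aged, 207, 177 and 144 in HFD, and 167, 139 and 150.2 in control libraries. Its ratio to Rps27 averaged −2.46 ± 0.123 in aged, −2.45 ± 0.113 in HFD and −2.61 ± 0.0404 in control libraries (SD, n = 3 each). The differences from control of 0.15 and 0.16 had an exact permutation p of 0.2 each. Rps27rt over Rps27 averaged −7.13 ± 0.330 in aged, −6.90 ± 0.511 in HFD and −6.43 ± 0.505 in control libraries (SD, n = 3 each), with exact permutation p of 0.2 and 0.3 against control. Rps27 and Rps27rt share 98.6% and 91.1% of their 50-base stretches with other genes, and their counts are uncertain for that reason.

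**Figure D4:**
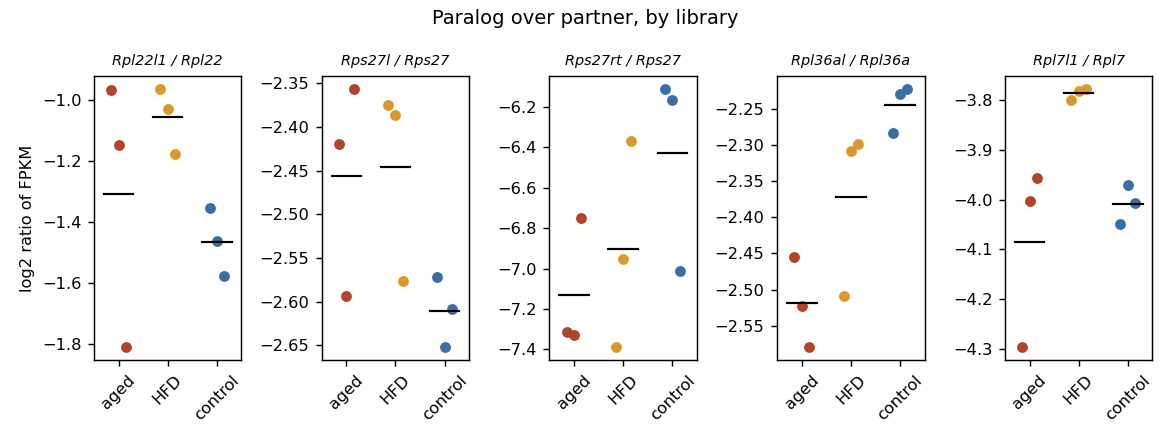
log2 ratio of the FPKM of each paralog over its partner in every library, with the mean of each group as a line, for 5 pairs in aged, HFD and control libraries. Rpl7l1 over Rpl7 lies at −3.80 to −3.78 in HFD libraries, above all control libraries, and Rpl36al over Rpl36a is lower in all aged than in all control libraries.

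Shared sequence is the rule in this family: 81 of the 82 tested members share at least some 50-base stretches with transcripts of other genes, mostly pseudogenes, and 46 share over 50% of them. The median share was 53.1%. The 36 members with 50% or less shared and the 46 with more had medians of 0.09 and 0.11 in HFD and 0.15 and 0.14 in aged against control libraries. All 3 called genes, Rpl7l1 (9.03% shared), Rpl22 (24.5%) and Rpl12 (49.04%), were among the 36. The shared stretches of Rpl7l1 occur in 252 other genes, of which only 6 are pseudogenes. Exons of another gene overlap 5 members on the same strand and 19 on the opposite strand.

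Fold changes of the members followed the GC content of their transcripts. Members with low GC content tended to be higher in HFD and in aged libraries: Spearman's rho between GC content and log2 fold change was −0.59 in HFD and −0.47 in aged against control libraries over 82 members, and 0.18 in aged against HFD libraries. The members share their libraries and depth, and the same relation ran over all tested genes (−0.48, −0.34 and 0.23 over 10365 genes with a GC value). The 41 members at or below the median GC content of 51.4% had a median log2 fold change of 0.15 in HFD and 0.18 in aged against control libraries, against 0.04 and 0.11 for the 41 above it. Rpl22l1 had the lowest GC content, 40.6%, and Rpl36 the highest, 60.8%. After a GC correction in each library, rho was 0.04 and −0.10, the members' median stayed at 0.10 in HFD and 0.15 in aged against control libraries, and Rpl7l1, Rpl22 and Rpl12 were called as before. Rplp2 was then also called higher in aged against control libraries (0.27, adjusted p 0.0400 in limma), and Rpl27a in aged against HFD libraries (0.24, adjusted p 0.0448 in limma). The corrected log2 fold change of Rpl22l1 in HFD libraries was 0.55 (adjusted p 0.133 in limma) and that of Rpl22 was 0.24 (adjusted p 0.109 in limma). Without aged replicate 3 and with the correction, 27 members (32.9%) were called higher in aged against control libraries, against 4.11% of all tested genes. That count also rests on leaving out a library in which the members were low.

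**Figure D5:**
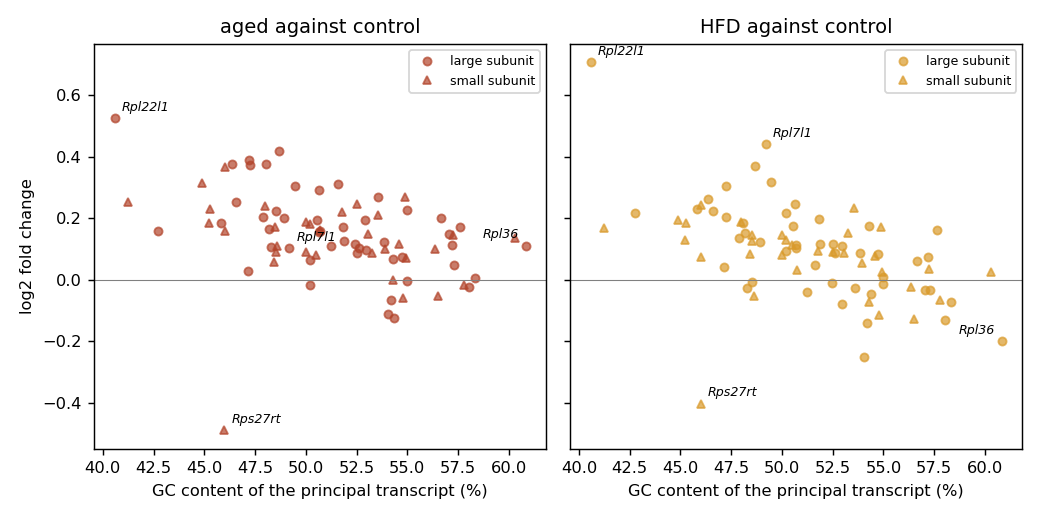
log2 fold change of the 82 tested ribosomal protein genes against the GC content of the principal transcript in percent, for aged over control (left) and HFD over control (right), with circles for the large and triangles for the small subunit. The points fall from upper left to lower right (Spearman's rho −0.47 and −0.59), with Rpl22l1 at the upper left and Rps27rt below the rest.

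Genes that work with the ribosomal proteins were taken from lists of known factors. Fau, the precursor of eS30, and Rack1, ribosomal proteins outside the name rule, were not called in any comparison.

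Of 15 genes whose mRNAs carry TOP motifs, mostly translation factors, 2 were called higher in HFD and 2 in aged against control libraries. In either comparison 0 were called lower. Of all tested genes, 8.26% and 4.01% were called higher and 8.76% and 3.74% lower. Eif3e, a subunit of the initiation factor that brings the small subunit to mRNA, was higher in both, at 61.4 ± 4.41 FPKM in HFD and 64.9 ± 6.72 FPKM in aged, against 49.5 ± 3.49 FPKM in control libraries. Its log2 fold changes were 0.30 and 0.38 (adjusted p 0.0397 and 0.0282 in limma). Pabpc1, the poly(A) binding protein, was higher in HFD libraries (0.21, adjusted p 0.0491 in limma), and Eif3h in aged libraries (0.25, adjusted p 0.0396 in limma).

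Among factors that assemble ribosomes, mostly in the nucleolus, the genes called against control were lower. Of 50 such factors, 9 were called lower and 0 higher in HFD against control libraries, and 9 lower and 0 higher in aged against control libraries, where 8.76% and 3.74% of all tested genes were called lower. The medians over the 50 were −0.11 and −0.10. Noc4l, which acts in small subunit assembly, had 17.6 ± 1.22 FPKM in aged and 19.1 ± 0.597 in HFD, against 25.5 ± 0.675 FPKM in control libraries. Its log2 fold changes were −0.51 in aged and −0.39 in HFD libraries (adjusted p 0.00222 and 0.00516 in limma). Nle1, a large subunit assembly factor, had 9.65 ± 1.28 FPKM in aged and 8.63 ± 0.395 in HFD, against 13.1 ± 0.536 FPKM in control libraries, log2 fold changes of −0.41 and −0.55. Rrp9, a U3 snoRNP protein, and Rrp12, a ribosome export factor, were called lower in both as well, at −0.41 and −0.39 in aged and −0.41 and −0.42 in HFD libraries. In aged against HFD libraries 0 of the 50 were called.

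For the next counts, the shares of all tested genes called higher and lower were 8.26% and 8.76% in HFD against control, 4.01% and 3.74% in aged against control and 3.54% and 4.45% in aged against HFD libraries. Of 15 genes of the RNA polymerase I machinery, 0 were called higher and 3 lower in HFD against control libraries: Taf1c (−0.57), the activator Ubtf (−0.24) and the polymerase subunit Polr1b (−0.38). In aged libraries 1 was called higher than in control libraries, the termination factor Ttf1 (0.41), and 0 lower. Of 15 regulators of TOP mRNA translation, Akt1s1, an inhibitor within the mTOR complex, and Rps6kb2, an S6 kinase, were called lower in HFD libraries (−0.35 and −0.33), 0 were called higher, and 0 were called in aged against control libraries. Of 11 p53 pathway genes tied to ribosomal stress, Ccng1 was called higher in HFD libraries (0.38), and Ccng1 (0.50) and Bbc3 (0.60) in aged libraries, each against control. In aged against HFD libraries Bbc3, Cdkn1a and Sesn2 were called higher, and no p53 pathway gene was called lower in any comparison.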

How the data were processed

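RNA-seq of sorted basal keratinocytes was measured in 9 libraries. The authors deposited 1 table of FPKM with 22399 rows. Per the submitters' processing notes, the tools were cutadapt, STAR 2.6.0c, HTSeq 0.11.2 and DESeq2 1.30.0 with the mm10 genome. Which tool made the FPKM, and if counting took strand into account, is not given in the sources used here. Multiplied by merged exon length, the low values of a library were whole multiples of the worth of 1 read (97.5% to 98.2% of those at or under 30 reads, within 0.02 of a read), which gives the depth of 23.5 to 35.8 M reads. Single-cell data of the series were not analysed here.

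The log2 of FPKM + 1 was fitted in limma 3.58.1 under R 4.3.3 (eBayes with a trend, two-sided), over the 10367 genes that averaged 1 FPKM or more, in 1 model with a mean per group over all 9 libraries. Fold changes are on that scale and understate changes of low genes. P-values were adjusted by Benjamini-Hochberg over all tested genes and called under 0.05. Levels are FPKM as mean ± SD, and fold changes carry limma's SE. Paralog ratios used exact permutation tests. On simulated data for HFD against control libraries (10 draws over 10367 genes), 19.7% of changes of 0.3, 78.6% of 0.6 and 95.5% of 1 on the log2 scale were recovered, and 4.82% of calls were false. Most changes of 0.3 were therefore missed in the simulation. Its noise was drawn separately for each gene, without the shifts with GC content seen in these libraries. The rates therefore need not hold for the real data.

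The members and lists were chosen with earlier results of these data known. Named members are those called, the 5 highest and lowest fold changes and the 4 smallest p-values per direction in each comparison, the 5 highest and lowest levels per subunit, paralog pairs, Rpsa, Rps27a, the Rplp genes and the members not tested, of which the text gives the main ones; results for a few genes are not reported here. Rpl5, Rpl11 and Rpl27a and the long promoter runs were partly picked after their values were seen. Of other lists, up to 4 called genes with the smallest p are named. GC content, exon lengths and shared stretches of 50 bases came from GENCODE M21 on GRCm38, and promoter sequences from RefSeq. Also tried were a pseudocount of 0.1, no filter, a minimum of 5 FPKM, quantile normalization, median-ratio scaling, scaling to total FPKM, library weights, the robust setting, only the 6 libraries compared, a replicate block, GC and length corrections (loess, span 0.5), and leaving out each library. The GC correction without aged replicate 3 was added after seeing the data.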

Additional observations from a re-analysis of the deposited data

Results flagged for a closer look

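Rpl7l1 was the 1 member whose change differed between the HFD and the aged group, both set against the same control libraries. The log2 fold change in aged minus that in HFD libraries was −0.34 ± 0.0866 (adjusted p 0.0372 in limma, aged against HFD). It was 0.10 ± 0.0866 in aged and 0.44 ± 0.0866 in HFD against control libraries. All 3 aged libraries were below all 3 HFD libraries. The call was lost in 10 of 23 other settings.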

How the results depend on the processing

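No called value changed sign under any setting tried, and Rpl7l1 in HFD against control libraries was called in all. Counts of members called moved as follows. Higher in HFD against control libraries (1): 4 with library weights, 6 with only the 6 libraries compared, 3 with a length correction, 4 with a GC correction and without aged replicate 3, and 1 to 6 leaving out 1 library. Of all 10367 tested genes, 1187, 949, 879 and 646 were called higher in these settings, and 385 to 1039 leaving out 1 library. Lower (0): 1 with quantile normalization, scaling to total FPKM (both Rpl36) or a length correction, and 0 to 1 leaving out 1 library. All tested genes gave 911, 1159 and 919, and 364 to 1072. Higher in aged against control libraries (2): 0 with no filter, 1 with quantile normalization, 5 with library weights, 0 with only the 6 libraries, 27 with a GC correction and without aged replicate 3, and 0 to 29 leaving out 1 library. Over all genes the counts in that order were 125, 405, 459, 274 and 426, and 190 to 592 leaving out 1 library. Lower (0): 0 to 1 leaving out 1 library, beside 114 to 662 of all tested genes. Higher in aged against HFD libraries (0): 3 each with quantile normalization, scaling to total FPKM and library weights, 1 with a GC correction, 6 with a GC correction and without aged replicate 3, and 0 to 5 leaving out 1 library. Over all genes the counts in that order were 339, 359, 501, 341 and 296, and 168 to 355 leaving out 1 library. Lower (1): 0 with no filter, quantile normalization, only the 6 libraries, or a GC correction and without aged replicate 3, and 0 to 1 leaving out 1 library. Over all genes these were 100, 441, 371 and 481, and 200 to 432. The F test (3): 0 with no filter, 5 with scaling to total FPKM, 11 with library weights, 26 with a GC correction and without aged replicate 3, and 1 to 28 leaving out 1 library. Of all tested genes, the F test called 2110 (20.4%) with all libraries and 2479 (23.9%) without aged replicate 3. Shares over all genes are not given for the other F test settings or for the replicate block below. The F test counts of members there show only that the number moved with the setting. The small subunit median in aged against control libraries (0.15) was 0.26 with a GC correction and without aged replicate 3. The cause of these moves was not tested, except that leaving out a library or other groups changes the samples and the estimate of the spread.

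Same-numbered libraries of different groups had correlations of their deviations between −0.05 and 0.27 (different numbers −0.29 to 0.22). The pairs of replicate 3 libraries had 0.185, 0.212 and 0.274, while control replicate 2 and aged replicate 2 had −0.05. The ranges overlap, so they do not settle whether the numbers pair the samples. With the replicate block, 4 members were higher and 1 lower in HFD against control, 10 higher in aged against control and 1 higher and 1 lower in aged against HFD libraries, and the F test called 9. Over all genes the block gave 978 higher and 1083 lower in HFD and 557 and 580 in aged, each against control. In aged against HFD libraries it gave 465 and 522. With the GC correction and the block, the member counts were 2 higher in HFD, 5 higher in aged against control, and 6 by the F test. Over all genes, 634 were then higher in HFD and 469 in aged against control libraries.

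Over all genes, no filter gave 367 higher and 327 lower in HFD (856 and 908 with the filter), 125 and 101 in aged (416 and 388), each against control, and 52 and 100 in aged against HFD libraries (367 and 461). A GC correction gave 566 and 490 in HFD, and only the 6 libraries 274 and 195 in aged against control. Scaling to total FPKM gave 358 and 500 in aged against control libraries. Members had 76 reads or more in every library, and 3 libraries a group limit the precision.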
